A study of Homo sapiens with 6 samples.

Results

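The 10 transcripts studied belong to lipoprotein assembly and were measured in HepG2 cells given glycine: APOA1, APOA2, APOA5, APOB, APOC1, APOC3, APOE, APOH, APOM and MTTP. They were chosen by name, with earlier results of these data known, as apolipoproteins made by the liver and the protein that loads lipid onto APOB, and are 10 of the 57500 genes counted. All 10 passed the filter on low counts, which left 15492 genes to test. HepG2 is an established human hepatocellular carcinoma line that still makes and secretes many plasma proteins of the liver. Wild-type cells received vehicle or 10 mM glycine for 24 h, and RNA was sequenced from 3 replicates per group that the submitters describe as independent. The series belongs to work on hydrogen cyanide that mammalian cells form from glycine, and the comparison shows which transcripts differ when glycine is raised. The model is a single tumour line, and its culture medium already supplies glycine to the vehicle cells.

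Lipoproteins carry triglyceride and cholesterol through plasma in particles held together by apolipoproteins. In the hepatocyte, APOB is lipidated in the endoplasmic reticulum as it is translated, a step that needs the microsomal triglyceride transfer protein encoded by MTTP, and the particle then leaves as very low density lipoprotein (VLDL). Smaller exchangeable apolipoproteins, among them APOA1, APOA2, APOE and the C group, build high density lipoprotein (HDL) or move between particles, where they steer lipases and receptors.

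The libraries held 31795489 to 58815986 counts assigned to genes. No pair of replicates was alike within sampling noise, with a chi-square per degree of freedom of 7.61 at the least. Levels are given in CPM, counts scaled to a common library size, with the SD over 3 libraries. The 8 hepatocyte markers were all detected, and their summed level was 16913 to 23031 CPM with vehicle and 16108 to 19152 CPM with glycine. Of these 8, TTR, a carrier of thyroid hormone and retinol, was called lower and none was called higher. The shares over all tested genes were 6.54% lower and 6.71% higher. Of 13 markers of fibroblasts, endothelium, leukocytes and enterocytes, none was at 0 in every library. Their summed levels with vehicle and with glycine were 27.0 to 30.8 and 21.1 to 21.9 CPM for 4 fibroblast genes, and 2124 to 2327 and 1692 to 1851 CPM for 3 leukocyte genes. The leukocyte sum was nearly all LYZ, with PTPRC, the pan-leukocyte marker, at 0.086 CPM at the most. The sums were 5.45 to 5.76 and 4.60 to 5.26 CPM for 3 endothelial genes and 1.06 to 1.54 and 0.758 to 1.13 CPM for 3 enterocyte genes. Within these lists the calls went both ways: COL1A1 (log2 change 1.03, edgeR adjusted p = 0.000585) and CD68 (0.63, 0.0226) were higher with glycine, and PDGFRB (-0.66, 0.000137), VWF (-1.18, 0.0239) and LYZ (-0.32, 0.0172) were lower. The vehicle and glycine means were low for COL1A1 (2.15 and 4.38 CPM), CD68 (1.33 and 2.07 CPM) and VWF (0.58 and 0.26 CPM). Of the exon bases of CD68, 85.8% lie in other annotated genes. The part of these markers in the results was not tested. In bulk RNA, fewer cells that express a gene and less of its RNA per cell cannot be told apart.

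Glycine lowered 3 of the 10 transcripts, MTTP, APOA5 and APOA1, and APOB, which held the most counts of the 10, had the same mean in both groups. None was called higher. A call means an adjusted p under 0.05 in the two-sided quasi-likelihood test of edgeR, with Benjamini-Hochberg adjustment over all 15492 genes. By that rule 30% of the 10 genes were called lower, against 6.54% of all tested genes called lower, 6.71% called higher and 13.3% called in either direction. At an unadjusted p under 0.05 there were 5 lower and 1 higher, beside 13% and 14.3% of all tested genes, and neither DESeq2 nor limma-voom called any of the 10 higher. The 2 groups did not overlap for 5 of the 10 genes, 4 lower and 1 higher with glycine, where 31.6% of all tested genes did not overlap (14.4% lower and 17.2% higher). The median log2 change was -0.15 over the 10 genes and 0.00 over all tested genes. Over the 8 hepatocyte markers it was -0.22, with 6 of the 8 below 0, so a lower median was not particular to the 10 genes.

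**Figure D1:**
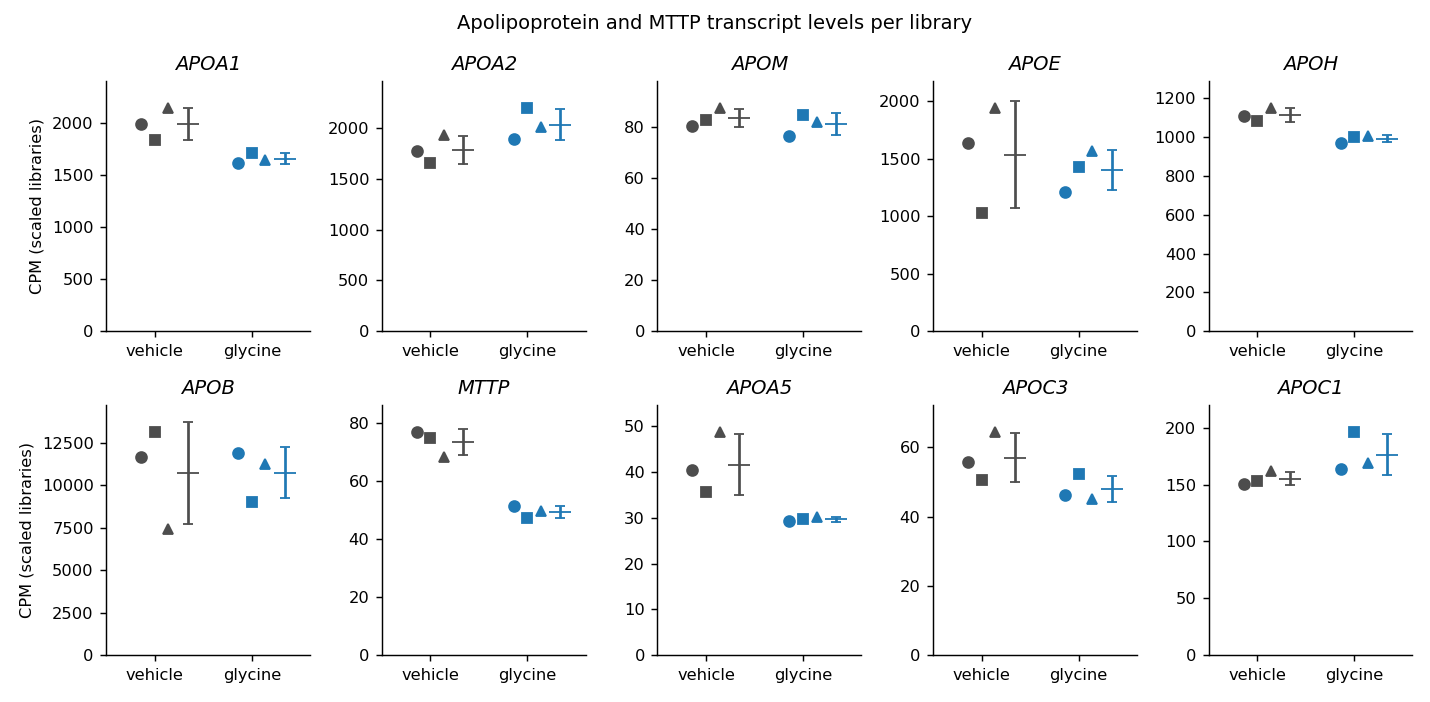
Level of each transcript in every library, in CPM on linear axes that start at 0. Grey is vehicle and blue is glycine, circle, square and triangle are replicates 1, 2 and 3, and the bar beside them is the mean with its SD. The groups are apart for MTTP, with 68.3 CPM or more in every vehicle library and 51.3 CPM or less in every glycine library, and the APOB points are mixed.

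MTTP lies on GRCh38 chromosome 4 at 99563761 to 99623999, on the plus strand, and was counted over 5398 exon bases (ENSG00000138823). It stood at 77.0, 74.8 and 68.3 CPM in the vehicle libraries and at 51.3, 47.1 and 49.6 CPM in the glycine libraries. Every glycine library was below every vehicle library. The mean fell from 73.4 ± 4.53 to 49.3 ± 2.06 CPM (SD, n = 3 each), a log2 change of -0.57 ± 0.07 (SE) with an edgeR adjusted p of 0.000104. As a percentage, the level fell by 32.8%, with a 95% interval of -39.3% to -25.7%. It was called lower under all 19 alternatives tried.

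APOB, the structural protein of VLDL and of low density lipoprotein (chromosome 2, 21001429 to 21044073, minus strand, ENSG00000084674), is what MTTP loads. It was the third most abundant of all tested transcripts by CPM, which is not scaled to length. It stood at 11666, 13184 and 7405 CPM with vehicle and at 11926, 9039 and 11291 CPM with glycine. The third vehicle library was the lowest of the 6 and the second vehicle library the highest, so the groups overlapped throughout. The means were 10752 ± 2996 and 10752 ± 1517 CPM (SD, n = 3 each). The 95% interval of the change ran from -22.95% to 29.8% (edgeR adjusted p = 1), so a fall of the size seen for MTTP lay outside it, while smaller changes in either direction did not. The sign depended on single libraries, with a log2 change of -0.21 without vehicle replicate 3, -0.09 without glycine replicate 1, -0.05 without glycine replicate 3 and 0.17 without vehicle replicate 2.

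APOA5, a scarce apolipoprotein that promotes lipolysis of triglyceride by lipoprotein lipase, had the second fall among the 10 (chromosome 11, 116789367 to 116792420, minus strand, ENSG00000110243). Its levels were 40.4, 35.6 and 48.9 CPM with vehicle and 29.2, 29.7 and 30.2 CPM with glycine. The glycine libraries were nearly equal and all below the vehicle libraries, which spread more widely. The mean fell from 41.6 ± 6.72 to 29.7 ± 0.504 CPM (SD, n = 3 each), a log2 change of -0.49 ± 0.10 (SE; edgeR adjusted p = 0.00513). APOC3, whose protein acts the other way by inhibiting lipolysis and the uptake of remnants, lies in the same cluster of chromosome 11 (116829706 to 116833072, plus strand, ENSG00000110245). It stood at 55.8, 50.5 and 64.6 CPM with vehicle and at 46.3, 52.2 and 45.1 CPM with glycine, so that glycine replicate 2 was above vehicle replicate 2. The log2 change was -0.25 ± 0.09 (SE; edgeR adjusted p = 0.0866) and was not called. It passed the threshold without vehicle replicate 2 (edgeR adjusted p = 0.0276) and after removal of a trend with gene length (0.0162) or GC content (0.046). Without vehicle replicate 3 the log2 change shrank to -0.15 (edgeR adjusted p = 0.265).

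APOA1, the main protein of HDL, is the next gene of that cluster (chromosome 11, 116835751 to 116837950, minus strand, ENSG00000118137). Its levels were 1988, 1840 and 2148 CPM with vehicle and 1619, 1717 and 1644 CPM with glycine. All glycine libraries were lower, by a narrower gap than for MTTP. The mean fell from 1992 ± 154 to 1660 ± 51.1 CPM (SD, n = 3 each), a log2 change of -0.26 ± 0.08 (SE), and the edgeR adjusted p of 0.0483 was close to the threshold. The call was lost under 10 of the 19 alternatives, always with the same direction. Leaving out vehicle replicate 1 or 3 gave adjusted p values of 0.0851 and 0.16, and leaving out glycine replicate 1, 2 or 3 gave 0.168, 0.0829 and 0.12. APOA4, the remaining apolipoprotein of the cluster and mainly an intestinal product, was scarce, at 4.14, 3.58 and 5.37 CPM with vehicle and 3.20, 3.38 and 2.77 CPM with glycine. Its groups did not overlap, and its log2 change of -0.48 was not called (edgeR adjusted p = 0.0605).

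APOA2, the second protein of HDL (chromosome 1, 161222292 to 161223631, minus strand, ENSG00000158874), did not share the lower levels of APOA1. It stood at 1775, 1656 and 1927 CPM with vehicle and at 1890, 2199 and 2011 CPM with glycine. Vehicle replicate 3 was above glycine replicate 1, so the groups overlapped. The log2 change was 0.19 ± 0.09 (SE; unadjusted p = 0.0507, edgeR adjusted p = 0.185) and was not called. Taken within each library, where scaling cancels, the log2 ratio of APOA2 to APOA1 counts was -0.16, -0.15 and -0.16 with vehicle and 0.22, 0.36 and 0.29 with glycine. The vehicle ratios were almost identical and every glycine ratio was higher. The ratio was 1.36-fold higher with glycine, at a mean log2 of 0.29 (SD 0.067) against -0.16 (SD 0.0057), and the differences between single libraries of the groups ran from 0.38 to 0.52. The exact permutation test (two-sided) gave p = 0.1, the smallest it can give with 3 against 3, and 0.167 after adjustment over the 5 ratios computed.

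The other ratios set a transcript beside its partner or neighbour. The log2 ratio of MTTP to APOB was -7.24, -7.46 and -6.76 with vehicle and -7.86, -7.58 and -7.83 with glycine. Those groups did not overlap, with a difference of -0.60 that ranged from -1.10 to -0.12 between single libraries (exact permutation p = 0.1, adjusted 0.167). APOA5 to APOA1 was lower in each glycine library, with a difference of -0.21 and a range of -0.40 to -0.07 (exact permutation p = 0.1, adjusted 0.167). APOC3 to APOA1 overlapped, with a difference of 0.01 and a range of -0.13 to 0.15 (exact permutation p = 0.7, adjusted 0.7). APOC1 to APOE also overlapped, at 0.27 with a range of -0.46 to 0.73 (exact permutation p = 0.4, adjusted 0.5), and its difference was 0.11 without vehicle replicate 3 and 0.53 without vehicle replicate 2.

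**Figure D2:**
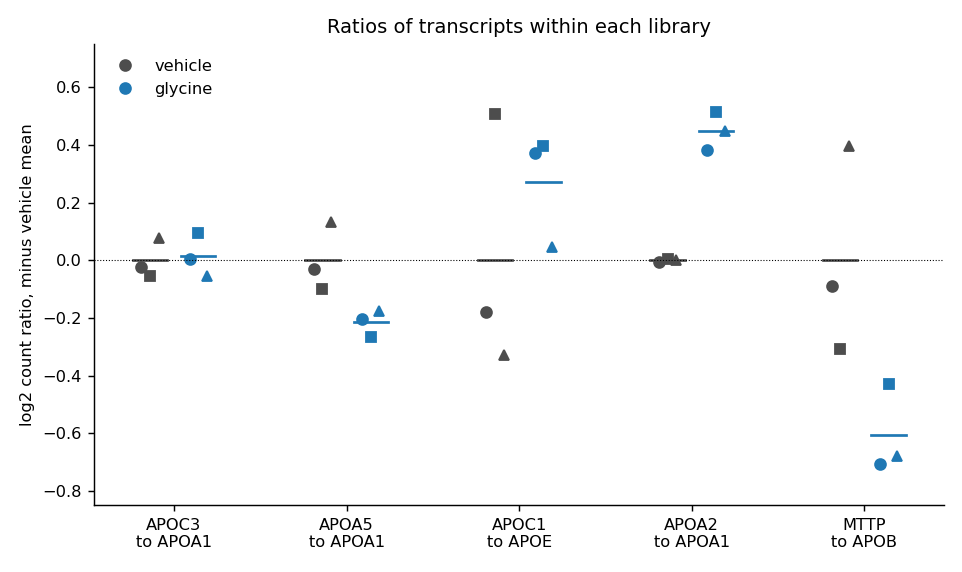
Log2 ratio of the counts of 2 transcripts in each library, minus the vehicle mean of that ratio. Grey is vehicle and blue is glycine, symbols are replicates 1 to 3 (circle, square, triangle) and lines are group means. The 3 vehicle points of APOA2 to APOA1 coincide, and the glycine points lie 0.38 to 0.52 above them.

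APOE and APOC1 are neighbours on chromosome 19 (44905754 to 44909393 and 44914247 to 44919349, both on the plus strand, ENSG00000130203 and ENSG00000130208). APOE, the ligand by which remnants bind their receptors on the hepatocyte, stood at 1633, 1030 and 1942 CPM with vehicle and at 1211, 1429 and 1562 CPM with glycine. The vehicle libraries enclosed the glycine libraries, and the vehicle SD was 30.2% of the mean, the widest of the 10 genes. The log2 change of -0.13 ± 0.17 (SE; edgeR adjusted p = 0.674) had a 95% interval of -0.50 to 0.24 and changed sign to 0.07 without vehicle replicate 3. It was -0.35 without vehicle replicate 2, -0.05 without glycine replicate 1 and -0.23 without glycine replicate 3. APOC1, which slows the uptake of remnants and inhibits cholesteryl ester transfer, stood at 151, 153 and 162 CPM with vehicle and at 164, 197 and 169 CPM with glycine. Its groups did not overlap and glycine was higher, by a log2 change of 0.19 ± 0.07 (SE) that was not called (edgeR adjusted p = 0.126) and that was 0.10 without glycine replicate 2 (0.448). Of the exon bases of APOC1, 43.2% are shared with other annotated genes. The gene with the largest overlap, on the same strand, held 758 counts over the 6 libraries. The near-identical pseudogene of APOC1, APOC1P1, held 892, beside 40330 for APOC1, so the level of APOC1 is less certain. APOC2, the activator of lipoprotein lipase further along this cluster, had means of 7.10 ± 0.721 and 8.21 ± 0.452 CPM (log2 change 0.21, edgeR adjusted p = 0.213), with 53.5% of its exon bases in other annotated genes. APOC4 had no counts, with 83.0% of its exon bases in other annotated genes. The largest overlap of both was with the gene APOC4-APOC2, which held 2937 counts over the 6 libraries, beside 1837 for APOC2. Whether APOC4 is expressed can therefore not be judged from its own count.

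APOH and APOM complete the group. APOH, also called beta-2-glycoprotein I, binds anionic phospholipid (chromosome 17, 66212033 to 66256525, minus strand, ENSG00000091583), and stood at 1107, 1082 and 1151 CPM with vehicle and at 969.9, 1001 and 1007 CPM with glycine. Every glycine library was lower, but the log2 change of -0.17 ± 0.07 (SE) was not called (edgeR adjusted p = 0.14), though DESeq2 called it (adjusted p = 0.0453). APOM, the carrier of sphingosine 1-phosphate in HDL (chromosome 6, 31652416 to 31658210, plus strand, ENSG00000204444), stood at 80.1, 82.7 and 87.3 CPM with vehicle and at 76.4, 84.7 and 81.8 CPM with glycine. Its groups overlapped, and the 95% interval of the log2 change, -0.18 to 0.10, was the narrowest of the 10. Of its exon bases, 8.19% are shared with other annotated genes, mostly or wholly with BAG6 on the other strand. BAG6 held 161277 counts over the 6 libraries, beside 19679 for APOM, and the interval does not cover reads assigned to the wrong gene.

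**Figure D3:**
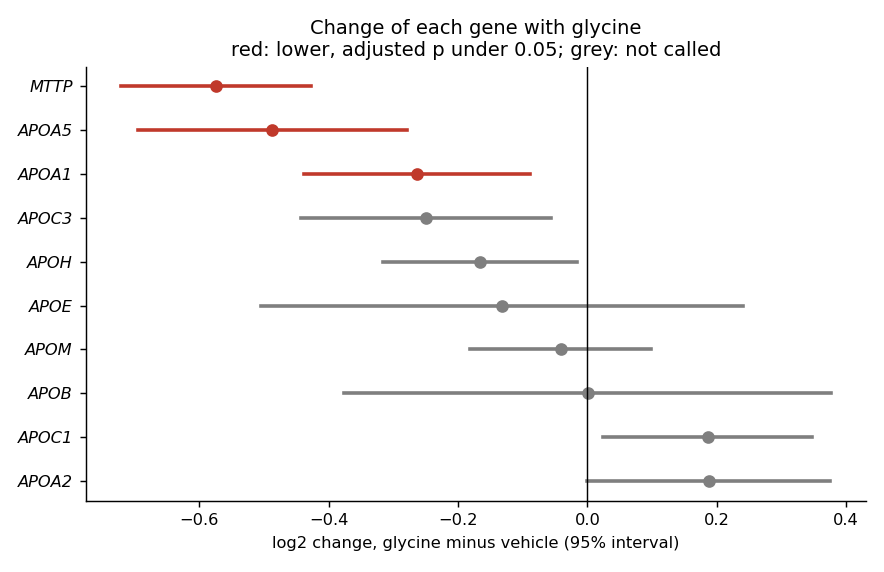
Log2 change of each transcript, glycine minus vehicle, with its 95% interval from edgeR (n = 3 per group). Red marks the 3 genes called lower, MTTP at -0.57, APOA5 at -0.49 and APOA1 at -0.26, and grey marks genes that were not called; the widest intervals are those of APOB and APOE.

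The windows upstream of the start are printed for the 2 genes with the largest falls and for APOA2, whose direction differed, because all 3 hold letters of motifs known for liver transcription factors. They are the 250 bases before a RefSeq start on GRCh38.p14, 5′ to 3′ on the strand of the gene: chr11:116792421-116792670 (minus) for APOA5, chr4:99574574-99574823 (plus) for MTTP and chr1:161223629-161223878 (minus) for APOA2. Capitals mark matches to the motifs searched on both strands, and positions count back from the start.
APOA5: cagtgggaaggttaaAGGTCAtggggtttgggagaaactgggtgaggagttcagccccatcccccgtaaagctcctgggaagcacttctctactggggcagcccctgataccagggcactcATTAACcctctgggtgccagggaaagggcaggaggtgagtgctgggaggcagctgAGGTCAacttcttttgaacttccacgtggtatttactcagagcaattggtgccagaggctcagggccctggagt
MTTP: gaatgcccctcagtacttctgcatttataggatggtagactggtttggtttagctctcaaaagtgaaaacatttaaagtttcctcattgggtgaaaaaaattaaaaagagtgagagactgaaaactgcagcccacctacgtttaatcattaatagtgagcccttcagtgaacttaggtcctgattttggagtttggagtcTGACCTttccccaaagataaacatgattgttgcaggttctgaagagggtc
APOA2: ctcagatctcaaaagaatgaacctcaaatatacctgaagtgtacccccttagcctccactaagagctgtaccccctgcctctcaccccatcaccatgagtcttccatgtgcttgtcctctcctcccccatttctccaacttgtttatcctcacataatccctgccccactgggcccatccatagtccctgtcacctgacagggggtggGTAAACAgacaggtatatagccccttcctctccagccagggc
In APOA5 the nuclear receptor core motif AGGTCA began at -235 and -74 and GTTAAT, the core of the HNF1 element, was read on the other strand at -129. In MTTP, AGGTCA was read on the other strand at -50, and in APOA2 the forkhead motif TGTTTAC was read on the other strand at -42. APOH had GTTAAT at -49 and, on the other strand, at -210. Another listed start of APOA5 had AGGTCA at -156. Both MTTP windows lie inside the span of the gene given above. The window nearer its 5′ end (chr4:99563880-99564129), which is not printed, had no match. APOC1, APOE and APOM had none of the 6 motifs in these windows, the remaining 3 being CAAAGTCCA (HNF4), TGTTTGC (forkhead) and TTGCGCAA (C/EBP). Of 35116 windows of the same length, 12.1% held AGGTCA, 6.23% GTTAAT, 2.98% TGTTTAC, 3.23% TGTTTGC, 0.325% CAAAGTCCA and 0.131% TTGCGCAA. These matches describe the letters of the windows and say nothing of binding. Upstream windows of APOA1, APOB and APOC3 were not analysed here.

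Apart from ranks by CPM, levels were compared between genes only after division by exon length. That length counts all annotated exon bases of a gene, which can exceed the mRNA made in these cells. The transcript forms in use were not determined, so the order and ratios below depend on the annotation. In CPM per kilobase, the vehicle order was APOA2 (1890 ± 144), APOA1 (1399 ± 108), APOH (836 ± 26.1), APOB (725 ± 202), APOE (701 ± 212), APOC1 (126 ± 4.73), APOC3 (65.8 ± 8.21), APOM (50.2 ± 2.21), APOA5 (21.5 ± 3.47) and MTTP (13.6 ± 0.839), each as mean and SD of 3 libraries. The order was the same with glycine, from 2152 ± 165 for APOA2 to 9.14 ± 0.382 for MTTP. Of neighbours in this order, APOH and APOB overlapped in both groups, as did APOB and APOE, and the others did not. With vehicle, APOH and APOE also overlapped. APOA2 exceeded APOA1 by 1.35-fold per kilobase with vehicle and by 1.85-fold with glycine. Per kilobase APOB was not the third but the 42nd most abundant transcript, because its mRNA is long.

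The 10 genes together took 1.75 ± 0.211% of counts with vehicle and 1.73 ± 0.138% with glycine (SD, n = 3 each). APOB alone made up 1.07 ± 0.288% and 1.08 ± 0.159%. The lowest share was that of vehicle replicate 3, at 1.504% (95% Wilson interval 1.50001% to 1.50798%, for counting error only). Without APOB the shares were 0.681 ± 0.0876% and 0.650 ± 0.0362%, so the group means of the pooled set differed by less than their spread with APOB and without it.

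Part of the difference between replicates followed transcript length. Vehicle replicate 3 had the highest vehicle level of 8 of the 10 genes and the lowest of the longest pair, APOB and MTTP. Glycine replicate 2 likewise had the lowest glycine level of APOB and MTTP and the highest of 5 others. Over 1092 genes of 10 kb or more, the median log2 deviation from the group mean was -0.10 in vehicle replicate 3 and -0.08 in glycine replicate 2, while over 102 genes under 1 kb it was 0.07 and 0.13. APOB deviated by -0.50 and -0.24 in these libraries, more than its length class. Another part did not follow length. Vehicle replicate 2 had the lowest vehicle level of 6 of the 10 genes, and APOE deviated there by -0.53, where genes of 2 to 5 kb had a median of 0.0006. Between the groups the medians were small, at 0.04 for genes of 1 to 2 kb and -0.04 for those of 10 kb or more. With the length trend removed, MTTP, APOA5, APOA1 and APOC3 were called lower and APOB had a log2 change of 0.06 (edgeR adjusted p = 0.83).

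**Figure D4:**
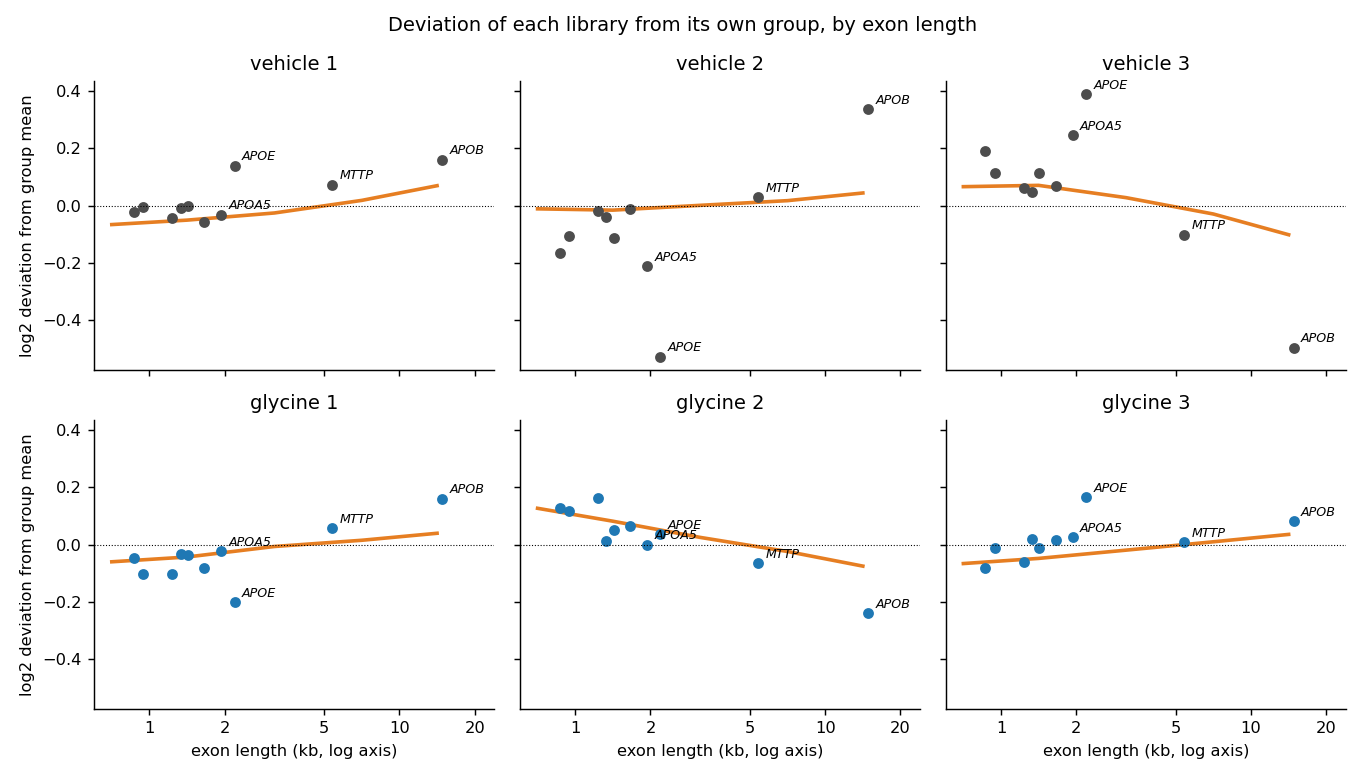
Log2 deviation of each of the 10 transcripts from the mean of its own group, by library, against exon length on a log axis. Points are the transcripts and the orange line joins the medians of all genes of at least 10 CPM in 5 length classes; it falls with length in vehicle replicate 3 and glycine replicate 2, where APOB lies at -0.50 and -0.24.

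Among 80 other genes of lipoprotein metabolism, 73 were tested, and 21 of them were called, 18 lower and 3 higher, which is 28.8% beside the 13.3% of all tested genes. These lists were compiled with earlier results of these data known, as were the 10 genes, so neither share is independent evidence. Without glycine replicate 2 the count of lower ones was 11, and without glycine replicate 3 the count of higher ones was 1. Of 11 tested apolipoproteins and HDL-associated proteins outside the 10, only SAA4, a constitutive HDL protein, was called. It was lower, with means of 57.1 ± 5.73 and 42.5 ± 2.69 CPM (log2 change -0.43, edgeR adjusted p = 0.00368), and 65.5% of its exon bases lie in other annotated genes. The median log2 change of the 11 was -0.06.

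Of 20 tested genes that act with MTTP in VLDL assembly and secretion, 3 were lower and 1 was higher, with a median of -0.13. Among all tested genes, 6.54% were called lower and 6.71% higher. DGAT1, an enzyme of triglyceride synthesis, stood at 163.9, 170.5 and 177.6 CPM with vehicle and at 119.4, 116.6 and 112.0 CPM with glycine, and its groups were well apart (log2 change -0.56, edgeR adjusted p = 6.23e-05). DGAT2, the other enzyme of that step, was not called (log2 change -0.10, edgeR adjusted p = 0.305). SEC24D, a coat protein of vesicles that leave the endoplasmic reticulum, fell from 82.3 ± 5.24 to 60.7 ± 6.22 CPM (edgeR adjusted p = 0.00294). SORT1, a sorting receptor that binds APOB, fell from 167 ± 8.66 to 143 ± 7.64 CPM (edgeR adjusted p = 0.042), a call lost without vehicle replicate 1 or 3 (0.129 and 0.0618) or glycine replicate 1 or 2 (0.121 and 0.152). PLTP, which transfers phospholipid between particles, rose from 37.7 ± 2.89 to 50.7 ± 1.05 CPM (log2 change 0.43, edgeR adjusted p = 0.00134). Of its exon bases, 7.87% lie in other annotated genes, with the largest overlap in CTSA on the other strand. CTSA held 117214 counts over the 6 libraries, beside 10746 for PLTP, so reads assigned to the wrong gene could affect this call. P4HB, the partner subunit of MTTP in the transfer complex, had means of 1969 ± 216 and 1965 ± 102 CPM (edgeR adjusted p = 0.993); it and DGAT2 are named after their values were seen.

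Of 15 tested receptors and plasma lipoprotein genes, 4 were called lower by edgeR, with a median of -0.17, and none was called higher by edgeR, DESeq2 or limma-voom. By the same edgeR rule 6.54% of all tested genes were called lower and 6.71% higher. An unadjusted p under 0.05 was found for 8 of the 15, beside 27.3% of all tested genes. LIPC, hepatic lipase, had the largest fall of these, from 45.5 ± 4.96 to 28.5 ± 1.41 CPM (log2 change -0.67, edgeR adjusted p = 0.000137). LCAT, which esterifies the cholesterol of HDL, fell from 35.9 ± 1.18 to 27.0 ± 0.997 CPM (edgeR adjusted p = 0.00125). Of its exon bases, 12.8% lie in other annotated genes, with the largest overlap in SLC12A4 on the same strand. SLC12A4 held 28000 counts over the 6 libraries, beside 7405 for LCAT. LIPG, endothelial lipase, fell from 3.57 ± 0.31 to 2.60 ± 0.169 CPM (edgeR adjusted p = 0.037) and lost its call without vehicle replicate 1 or 3 (0.116 and 0.0775) or glycine replicate 1, 2 or 3 (0.0589, 0.115 and 0.108).

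The 27 regulators of apolipoprotein transcription were all tested, and 10 were lower and 2 higher, with a median of -0.13. Over all tested genes, 6.54% were called lower and 6.71% higher. CREB3L3, a membrane-bound factor of the liver that activates APOA4, APOA5 and APOC2 genes, stood at 36.2, 41.2 and 40.0 CPM with vehicle and at 22.96, 23.85 and 22.08 CPM with glycine. No glycine library came near the vehicle range, and the log2 change was -0.77 ± 0.07 (SE; edgeR adjusted p = 1.43e-05). NR1H4, the bile acid receptor FXR, fell from 41.5 ± 1.35 to 30.7 ± 3.04 CPM (edgeR adjusted p = 0.0022), and FOXA3, a forkhead factor, from 59.9 ± 1.42 to 47.7 ± 1.61 CPM (edgeR adjusted p = 0.00371). The remaining lower ones were NR5A2, NR0B2, RXRA, PPARA, PPARGC1A, MLXIPL and RORA. NR5A2 lost its call without any library but vehicle replicate 3 (edgeR adjusted p = 0.0579 to 0.138), RXRA without glycine replicate 3 (0.0691), PPARGC1A without vehicle replicate 1 (0.0504) or glycine replicate 2 (0.0506), and MLXIPL and RORA without glycine replicate 2 (0.0642 and 0.0503). SREBF1, the lipogenic factor, rose from 94.4 ± 5.998 to 122 ± 13.2 CPM (edgeR adjusted p = 0.00956), which was lost without glycine replicate 3 (0.0579). FOXO1, an insulin-restrained factor that drives MTTP and APOC3, rose from 33.6 ± 1.90 to 40.3 ± 2.82 CPM (edgeR adjusted p = 0.0329), which was lost without vehicle replicate 1 or 3 (0.0968 and 0.0899) or glycine replicate 1 or 3 (0.101 and 0.162). HNF4A, the nuclear receptor that drives much of the hepatocyte programme and is named after its values were seen, stood at 527.7, 594.2 and 512.8 CPM with vehicle and at 503.7, 475.4 and 440.3 CPM with glycine, without overlap and without a call (log2 change -0.20, edgeR adjusted p = 0.109).

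**Figure D5:**
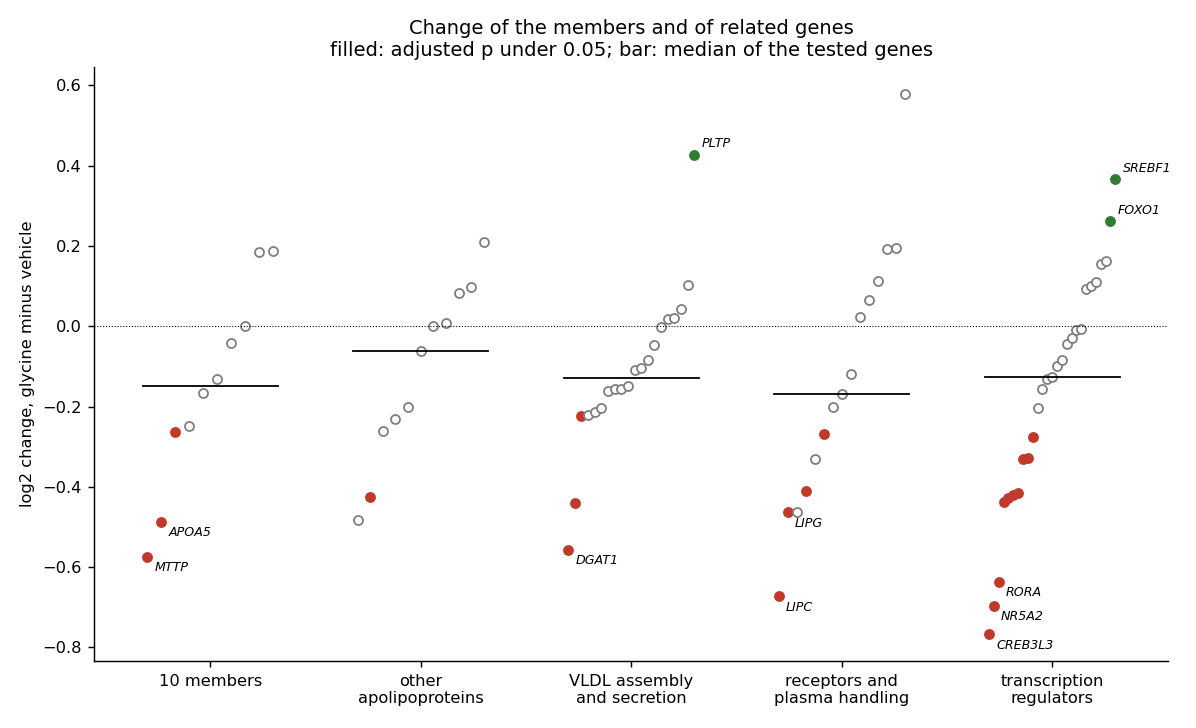
Log2 change of each tested gene, glycine minus vehicle, for the 10 genes and 4 lists of related genes, sorted within each list. Filled points were called by edgeR (red lower, green higher), open points were not, and bars are list medians, which lie between -0.17 and -0.06.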

How the data were processed

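RNA from HepG2 cells was sequenced in 3 vehicle and 3 glycine libraries. The authors deposited raw counts, 1 whole number for each gene and library; the submitters' processing notes name Trimmomatic 0.36, STAR 2.5.2b, featureCounts, Subread 1.5.2 and GRCh38. The annotation release and strand setting are not given in the sources used here, so reads of overlapping genes could be assigned in more than 1 way. Symbols were assigned by Ensembl id from a reference list of gene names. All 10 genes had the same start and end in GENCODE 29. Counts were tested with edgeR 4.0.16 in R 4.3.3 (glmQLFTest, two-sided, group alone), after its expression filter (minimum count 10, minimum total 15) and scaling by the trimmed mean of M values. P-values were adjusted by Benjamini-Hochberg over 15492 genes at 0.05. The standard error was the log2 change over the square root of F. CPM used the scaled library sizes. limma 3.58.1 and DESeq2 1.42.0 were alternatives, and scripts were tested on simulated data. Totals of 31795489 to 58815986 counts set the precision; intervals of shares cover counting error only, as the reads carry no molecular identifiers. The genes and lists were chosen with earlier results of these data known. All 10 genes are named, with cluster neighbours, the called genes of each list (of more than 6, the 3 of smallest p in each direction) and the 5 genes most like MTTP; a gene that this rule would name is not reported here.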

Additional observations from a re-analysis of the deposited data

How the results depend on the processing

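Under 19 alternatives, 1 choice changed at a time, except the replicate block with the length trend removed and the DESeq2 test, which also uses the size factors of DESeq2, MTTP kept its call (log2 -0.62 to -0.54, adjusted p at most 0.00313). APOA5 lost its call only in the test against a 1.2-fold change (0.107). APOA1 lost it there (1), with upper-quartile scaling (0.0513), total count scaling (0.0543), a filter of 1 CPM in 3 libraries (0.05), the replicate block (0.0804) and without any library but vehicle replicate 2, with log2 values of -0.32 to -0.21. The test against a 1.2-fold change called 235 genes higher and 246 lower, 1 of the 10 genes lower, and 0 related genes higher and 3 lower. Leaving out 1 library gave 587 to 926 genes higher and 655 to 1010 lower, 2 to 4 of the 10 genes lower and 0 higher, and 1 to 3 related genes higher and 11 to 21 lower. APOB changed sign with DESeq2 size factors (-0.0067), upper-quartile scaling (-0.0043), the 1 CPM filter (-1.8e-05) and the DESeq2 test (-0.0067), and ran from -0.21 to 0.17 with a library left out. APOE ran from -0.35 to 0.073, and the log2 ratio of APOC3 to APOA1 from -0.025 to 0.053. Length-scaled shares were 2.03% with vehicle and 2.01% with glycine. The cause of these changes was not tested. Same-numbered libraries did not deviate together (r -0.06, -0.03 and -0.00). The absence of a shared deviation cannot show whether the numbers pair them. The paper counts work on separate days as biological replicates and describes having controls each day. Which libraries share a day is not given in the sources used here. Vehicle replicates 1, 2 and 3 had r of 0.21, 0.21 and 0.18 with glycine replicates 3, 1 and 2, a match picked after the values were seen. Whether libraries of the 2 groups share a run was not tested. The replicate block, by number, called 866 genes higher and 918 lower, and 2 of the 10 lower. With 3 libraries per group, the spread of APOB and APOE limits what can be seen. P-values measure the spread between these cultures of 1 line.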

Other observations

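The 5 genes whose level over the 6 libraries was most like that of MTTP were DIXDC1 (Pearson r 0.999), DAB2IP (0.998), MTMR10 (0.997), EIF2S3 (0.996) and IGF1R (0.996), among 9101 genes of at least 10 CPM. The 6 points fall into 2 groups and share library and length effects, so r is a description. IGF1R, the receptor of insulin-like growth factor 1, stood at 163.5, 170.1 and 148.1 CPM with vehicle and at 104.7, 95.04 and 101.8 CPM with glycine (log2 change -0.68, edgeR adjusted p = 3.23e-05). EIF2S3, a subunit of the initiation factor eIF2, had means of 182.5 ± 6.97 and 154.5 ± 2.43 CPM (log2 change -0.24, edgeR adjusted p = 0.0186).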
